A study of Saccharomyces cerevisiae with 6 samples.

Results

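The genes described here are 10 budding yeast genes of leucine, isoleucine and valine synthesis: LEU1, LEU2, LEU3, LEU4, LEU9, ILV2, ILV3, ILV5, BAT1 and OAC1. They were taken by symbol from the array's probe annotation, and each of the 10 matched exactly 1 probe set, out of 5498 tested probe sets that cover 5449 genes. The study measured messenger RNA on 6 Affymetrix arrays, 3 from cells with a deletion of VPS4 (title numbers 4, 5 and 6) and 3 from wild type cells (title numbers 3, 4 and 6). Vps4 is the ATPase that disassembles the ESCRT-III complex on endosomes, and by its title the series belongs to work on ESCRT mutants and the recycling of amino acids. Both genotypes were harvested in mid-log growth at 26 °C from synthetic medium that supplied the amino acids each strain needed. The labels name the deletion strain only as a VPS4 knock out. They give neither the strain background nor the amino acids in the medium, and they do not say whether the replicates were grown as separate cultures. The p-values thus rest on the scatter among these 6 arrays, part or all of which may be technical.

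In yeast, valine and isoleucine are made in the mitochondrion by a shared set of enzymes. Acetolactate synthase (Ilv2 with its regulatory subunit Ilv6), the reductoisomerase Ilv5 and the dehydratase Ilv3 act in turn, and the aminotransferases Bat1, in the mitochondrion, and Bat2, in the cytosol, add the amino group. Leucine branches off the valine route: Leu4 and Leu9 make alpha-isopropylmalate in the mitochondrion, and the carrier Oac1 moves it across the inner membrane. Leu1 and Leu2 act next in the cytosol, and the same aminotransferases then add the amino group. The intermediate alpha-isopropylmalate also acts as a signal, because it turns the DNA-binding protein Leu3 into an activator of genes of this pathway. Many of the same genes are also raised by Gcn4, the factor of general amino acid control.

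Values are log2 expression per probe set as the authors deposited them, made with GCRMA, and each difference is the deletion mean minus the wild type mean on that log2 scale. All 10 genes lay above the array background on all 6 arrays: the lowest value of any of them was 7.37, against backgrounds of 1.82 to 1.92. Of the 10, 8 stood above 11 on every array, as 15.5% of tested probe sets did, and the largest value in the table was 13.6. VPS4 itself stood at 1.75, 1.42 and 1.29 on the deletion arrays, none of them above background, against 11.46, 11.48 and 11.39 on the wild type arrays, so its level in the deletion was lower by at least 760-fold (limma adjusted p = 1.30e-07). Wild type replicate 3 stood apart from its group: across the tested probe sets, whose genes are not independent of each other, its Pearson's r with either other wild type array was 0.9926, while wild type replicates 4 and 6 correlated at 0.999. Replicates 4 and 6 correlated with the deletion arrays at 0.9936 to 0.9943. By this measure replicate 3 was thus further from its own group than those arrays were from the deletion. Results are therefore given with and without wild type replicate 3 where it changes them. That array was singled out from these same data, and the fit without it rests on wild type replicates 4 and 6 alone. The SEs and p-values of that fit may thus understate the spread among wild type arrays. In that fit 10.1% of all tested probe sets were called lower and 11.9% higher (limma adjusted p under 0.05), against 1.46% and 2.82% with all arrays.

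All 10 genes had a lower mean in the deletion, and 4 of them, LEU1, LEU2, BAT1 and ILV3, passed the test (limma, Benjamini-Hochberg adjusted p under 0.05 over all tested probe sets). Of the 10, 0 were called higher. Over all tested probe sets, 1.46% were called lower, 2.82% higher and 4.27% in either direction. The median difference of the 10 genes was −0.17, against −0.0019 over all tested probe sets. The differences were small, from −0.42 for LEU1 to −0.05 for LEU9. For 8 of the 10 genes every deletion array lay below every wild type array, which was so for 11.8% of tested probe sets. LEU9 and LEU3 were the genes whose groups overlapped. The 10 genes were chosen with earlier results of these data known, so these counts describe the set and do not test it.

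**Figure D1:**
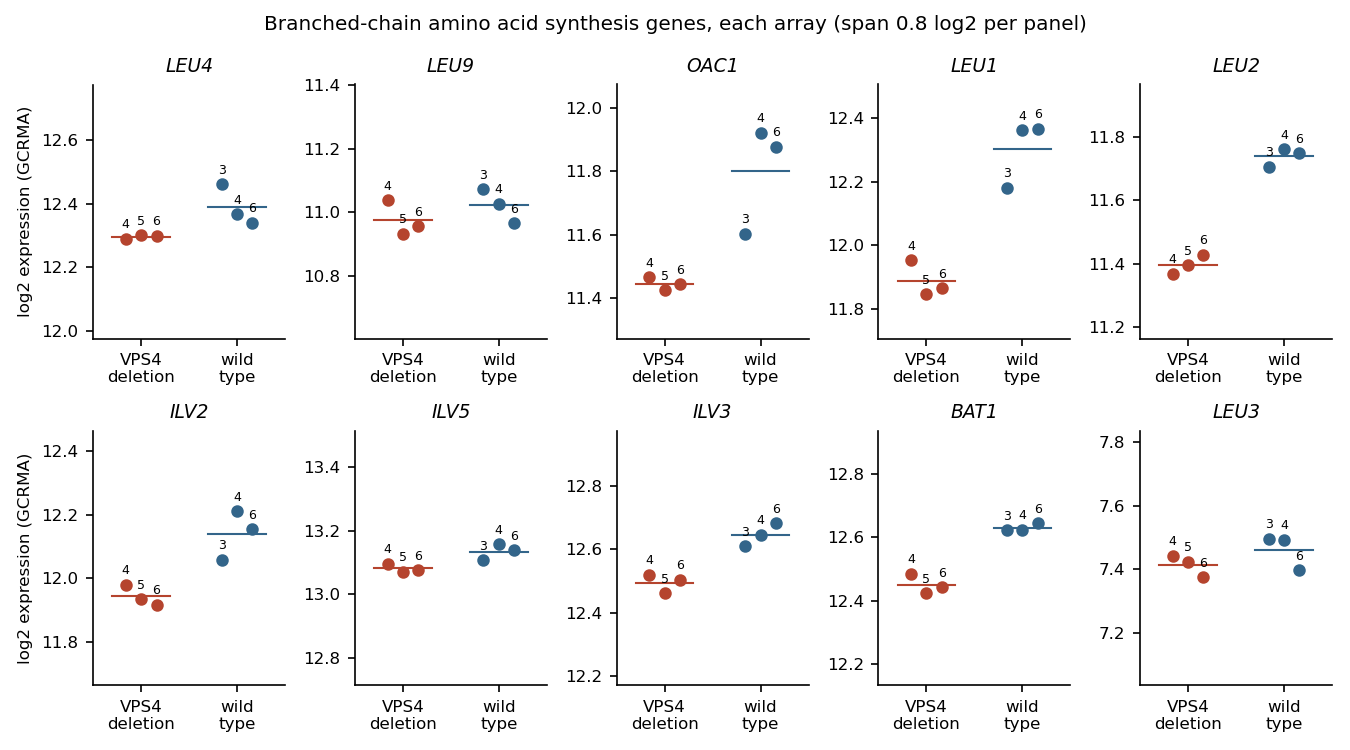
Log2 expression (GCRMA, vertical axes, each spanning 0.8 log2) of the 10 genes on each array, with the VPS4 deletion arrays on the left and the wild type arrays on the right of each panel; points carry the title number and lines are group means. Deletion arrays lie below all wild type arrays for every gene except LEU9 and LEU3, and wild type replicate 3 is the highest wild type array for LEU4, LEU9 and LEU3 and the lowest for the other genes.

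The largest differences belonged to the export and the cytosolic end of the leucine branch. LEU1 (YGL009C), the isopropylmalate isomerase, an iron-sulfur enzyme, stood at 11.95, 11.84 and 11.86 on the deletion arrays, against 12.18, 12.36 and 12.37 on the wild type arrays. The groups did not overlap, and wild type replicate 3 was the lowest of its group. LEU1 was 1.33-fold lower in the deletion, a log2 difference of −0.42 ± 0.06 (SE; limma adjusted p = 0.0124). Leaving out any 1 of the deletion arrays ended this call, with limma adjusted p = 0.0510 without replicate 4, 0.0790 without replicate 5 and 0.0761 without replicate 6, although the difference stayed between −0.38 and −0.48 in all alternatives run.

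LEU2 (YCL018W), the dehydrogenase that follows Leu1, stood at 11.37, 11.39 and 11.43 on the deletion arrays, against 11.70, 11.76 and 11.75 on the wild type arrays. The SD was 0.03 in each genotype, and the lowest wild type array lay 0.28 above the highest deletion array. The gene was 1.27-fold lower in the deletion, with a log2 difference of −0.34 ± 0.03 (SE; limma adjusted p = 0.00309) and a 95% interval from −0.41 to −0.28. By p-value LEU2 ranked 12 of 5498 tested probe sets. Among the 10 genes it was the one that passed in all 6 fits that left out 1 array, with limma adjusted p-values up to 0.0328. LEU2 is often mutated as a selection marker in laboratory yeast, and the labels do not say which allele either strain carried.

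OAC1 (YKL120W), the inner membrane carrier that also transports oxaloacetate and sulfate, differed by nearly as much but did not pass. It stood at 11.47, 11.42 and 11.44 on the deletion arrays, against 11.60, 11.92 and 11.88 on the wild type arrays. Wild type replicate 3 was 0.30 below the mean of the other wild type arrays, yet still above every deletion array. The log2 difference was −0.36 ± 0.08 (SE; limma adjusted p = 0.0621), with a 95% interval from −0.55 to −0.17. With wild type replicate 3 left out, OAC1 fell by 0.45 ± 0.02 (SE; limma adjusted p = 1.89e-06).

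The enzymes that start the leucine branch differed less. LEU4 (YNL104C), the main alpha-isopropylmalate synthase, stood at 12.29, 12.30 and 12.30 on the deletion arrays, against 12.46, 12.37 and 12.34 on the wild type arrays. Here wild type replicate 3 was the highest array of its group, the opposite of its place in LEU1 and OAC1. The difference of −0.09 ± 0.03 (SE) did not pass (limma adjusted p = 0.206), nor did the smaller difference of −0.06 ± 0.02 (SE) without that array (limma adjusted p = 0.0636). LEU9 (YOR108W), the second synthase, stood at 11.04, 10.93 and 10.96 on the deletion arrays, against 11.07, 11.03 and 10.97 on the wild type arrays. Its groups overlapped and its difference of −0.05 ± 0.04 (SE) did not pass (limma adjusted p = 0.652), with a 95% interval from −0.14 to 0.05. Within arrays, LEU4 minus LEU9 averaged 1.32 ± 0.06 in the deletion and 1.37 ± 0.02 in wild type (SD, n = 3 each; exact two-sided permutation p = 0.3). With 3 arrays against 3 the smallest p this test can give is 0.1, so it cannot show whether the pair changed equally.

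**Figure D2:**
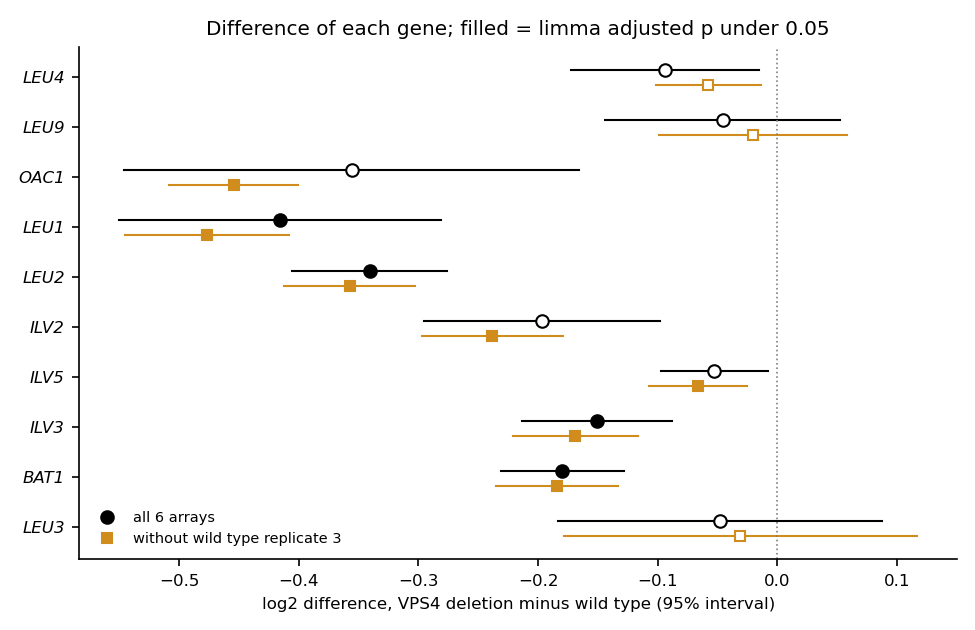
Log2 difference of each gene, VPS4 deletion minus wild type, with its 95% interval, from all 6 arrays (black circles) and without wild type replicate 3 (orange squares); filled symbols passed the test. With all arrays LEU1, LEU2, ILV3 and BAT1 are filled, and without wild type replicate 3 OAC1, ILV2 and ILV5 are filled as well; the dotted line marks no difference.

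In the mitochondrial steps shared by valine and isoleucine, the shifts of ILV2, ILV5, ILV3 and BAT1 lay between −0.05 and −0.20. ILV6, described further below, belongs to the same steps and had a slightly higher mean in the deletion. Its difference of 0.03 ± 0.04 (SE) did not pass (limma adjusted p = 0.768). ILV2 (YMR108W), the catalytic subunit of acetolactate synthase, stood at 11.98, 11.93 and 11.92 on the deletion arrays, against 12.06, 12.21 and 12.15 on the wild type arrays. The groups did not overlap, and the gap was narrowest to wild type replicate 3. The difference of −0.20 ± 0.04 (SE) lay just outside the threshold (limma adjusted p = 0.0522). ILV2 passed with a robust variance prior (limma adjusted p = 0.0498), after median centring (limma adjusted p = 0.0453) and without wild type replicate 3, where it fell by 0.24 ± 0.03 (SE; limma adjusted p = 0.000187).

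ILV5 (YLR355C) encodes the reductoisomerase, a protein that also binds mitochondrial DNA. It stood at 13.10, 13.07 and 13.08 on the deletion arrays, against 13.11, 13.16 and 13.14 on the wild type arrays. The groups were separated by a margin of only 0.01. The difference of −0.05 ± 0.02 (SE) did not pass (limma adjusted p = 0.210), and once wild type replicate 3 was left out ILV5 fell by 0.07 ± 0.02 (SE; limma adjusted p = 0.0290).

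ILV3 (YJR016C), the dihydroxyacid dehydratase, is like Leu1 an iron-sulfur enzyme. It stood at 12.52, 12.46 and 12.50 on the deletion arrays, against 12.61, 12.65 and 12.68 on the wild type arrays, with no overlap. ILV3 was 1.11-fold lower, a log2 difference of −0.15 ± 0.03 (SE; limma adjusted p = 0.0280). This call ended without a mean-variance trend (limma adjusted p = 0.0925) and in 5 of the 6 fits that left out 1 array, where the limma adjusted p was 0.0893 without deletion replicate 4, 0.126 without deletion replicate 5, 0.125 without deletion replicate 6, 0.0901 without wild type replicate 4 and 0.0930 without replicate 6 of wild type. The difference itself stayed between −0.13 and −0.17 in all alternatives run.

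BAT1 (YHR208W), the mitochondrial aminotransferase, stood at 12.48, 12.42 and 12.44 on the deletion arrays, against 12.62, 12.62 and 12.64 on the wild type arrays. The wild type arrays, replicate 3 included, spanned 0.02. BAT1 was 1.13-fold lower in the deletion, a log2 difference of −0.18 ± 0.02 (SE; limma adjusted p = 0.00881). The call ended without deletion replicate 5 (limma adjusted p = 0.0625) and without deletion replicate 6 (limma adjusted p = 0.0623), where the difference was −0.17 and −0.18.

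BAT2, which encodes the cytosolic aminotransferase, had a higher mean in the deletion. It stood at 10.55, 10.55 and 10.68 on the deletion arrays, against 10.63, 10.38 and 10.42 on the wild type arrays. Wild type replicate 3 lay inside the range of the deletion arrays, and BAT2 did not pass with all arrays (0.11 ± 0.07, SE; limma adjusted p = 0.489). Without that array BAT2 rose by 0.19 ± 0.04 (SE; limma adjusted p = 0.00873). Within arrays, BAT1 minus BAT2 was 1.93, 1.88 and 1.77 in the deletion and 1.99, 2.24 and 2.22 in wild type. Every deletion array was below every wild type array, a mean difference of −0.29, and the exact two-sided permutation p of 0.1 is the smallest that 3 arrays against 3 can give. The test therefore cannot show whether this pair changed unequally.

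LEU3 (YLR451W), the transcription factor of the pathway, stood at 7.44, 7.42 and 7.37 on the deletion arrays, against 7.50, 7.49 and 7.40 on the wild type arrays. The groups overlapped. Its difference of −0.05 ± 0.06 (SE) did not pass (limma adjusted p = 0.741), and the 95% interval ran from −0.18 to 0.09. Messenger RNA does not report the activity of Leu3, which depends on its ligand.

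How many of the 10 genes passed depended on the arrays used. When wild type replicate 3 was left out, 7 fell (OAC1, LEU1, LEU2, ILV2, ILV5, ILV3 and BAT1), and 10.1% of all tested probe sets were called lower in that fit. Without wild type replicate 4, and likewise without replicate 6 of that group, LEU1, LEU2 and BAT1 passed as lower, when 0.673% and 0.655% of all tested probe sets were called lower. With deletion replicate 4 left out, LEU2 and BAT1 passed, against 0.255% of all tested probe sets. LEU2 was the 1 gene of the 10 that passed without deletion replicate 5, when 0.0909% of all tested probe sets were called lower, and again without deletion replicate 6, when 0.182% were. Without deletion replicate 5 LEU1 was at −0.39, OAC1 at −0.35, ILV2 at −0.19 and BAT1 at −0.17. Leaving out a wild type array moved some differences more. Over all fits that left out 1 array, OAC1 ran from −0.45 to −0.30, ILV2 from −0.24 to −0.16 and LEU4 from −0.12 to −0.06. LEU2 stayed between −0.36 and −0.33.

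**Figure D3:**
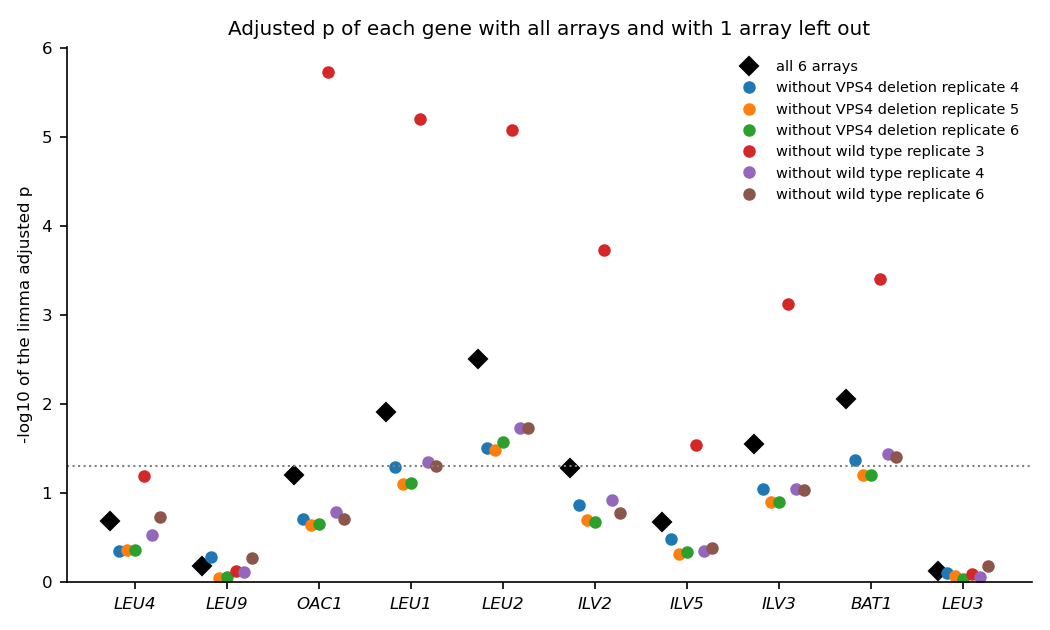
Limma adjusted p (as −log10, vertical axis) of each of the 10 genes with all 6 arrays (black diamonds) and with each array left out in turn (coloured circles); the dotted line is an adjusted p of 0.05. LEU2 lies above the line in every fit, and the fit without wild type replicate 3 gives the highest points for all genes but LEU9 and LEU3.

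By Pearson's r over the 6 arrays, the genes most like LEU1 were YDR316W-B (r = 0.996), MPC54 (0.993), MAK10 (0.987), YCS4 (0.986) and INA1 (0.986), among 5338 other probe sets above background on every array. YDR316W-B is a reading frame of a Ty retrotransposon, and its probe set is of the sort that may bind more than 1 copy. Of the other pathway genes, ILV3 ranked 7 in likeness to LEU1 (r = 0.983), ILV2 13 (0.979), BAT1 23 (0.969), OAC1 24 (0.969), ILV5 28 (0.960) and LEU2 34 (0.955). LEU4 (0.567), LEU3 (0.433) and LEU9 (0.386) ranked 1106, 1482 and 1647. These correlations are descriptions only, since the arrays fall into 2 genotypes and share the same normalization.

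Beyond the 10 genes, 37 others in 7 lists were examined. The lists held other pathway enzymes, further Leu3 genes, permeases, breakdown enzymes, pantothenate enzymes, other iron-sulfur proteins and general amino acid control. With all arrays 0 of the 37 genes passed the test (limma), 11 had an unadjusted p under 0.05, as 17.4% of all tested probe sets did, and their median difference was −0.02. In the fit that left out wild type replicate 3, 8 rose and 8 fell, when 11.9% and 10.1% of all tested probe sets were called higher and lower.

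Of the other 3 enzymes of the pathway, ILV1, ILV6 and BAT2, 0 passed with all arrays (limma). ILV1, the threonine deaminase that opens isoleucine synthesis, stood at 11.86, 11.86 and 11.81 on the deletion arrays, against 11.94, 11.83 and 11.84 on the wild type arrays. Its groups overlapped, with a difference of −0.03 ± 0.03 (SE; limma adjusted p = 0.775). ILV6, the regulatory subunit of acetolactate synthase, differed by 0.03 ± 0.04 (SE; limma adjusted p = 0.768), whereas without wild type replicate 3 it rose by 0.07 ± 0.02 (SE; limma adjusted p = 0.0440). With BAT2, 2 of these 3 genes rose in that fit and 0 fell, when 11.9% and 10.1% of all tested probe sets were called higher and lower.

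Further genes reported to be under Leu3 in this yeast had differences of either sign, and 0 of 3 passed with all arrays (limma). GDH1, the NADP-dependent glutamate dehydrogenase, stood at 12.69, 12.69 and 12.68 on the deletion arrays, against 12.91, 12.75 and 12.81 on the wild type arrays, and its difference of −0.14 ± 0.04 (SE) did not pass (limma adjusted p = 0.130). TNA1, the nicotinic acid permease, lay on the other side: 12.01, 12.01 and 12.00 in the deletion, against 11.93, 11.76 and 11.79 in wild type. Its groups did not overlap, and its difference of 0.18 ± 0.04 (SE) did not pass (limma adjusted p = 0.0776). MAE1, the mitochondrial malic enzyme, differed by −0.06 ± 0.06 (SE; limma adjusted p = 0.709). Without wild type replicate 3 all 3 passed: GDH1 fell by 0.09 and MAE1 by 0.13, and TNA1 rose by 0.23 (limma adjusted p = 0.0145, 0.00319 and 4.68e-05). In that fit 10.1% of all tested probe sets were called lower and 11.9% higher.

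Of 6 permease genes for the uptake of these amino acids, 0 passed with all arrays (limma). BAP2, the branched-chain amino acid permease, differed by 0.02 ± 0.03 (SE; 95% interval −0.06 to 0.09), and BAP3 by 0.02, TAT1 by 0.15, AGP1 by −0.07 and GNP1 by −0.09. With wild type replicate 3 left out, BAP2 was at 0.0035, TAT1 at 0.07, AGP1 at −0.00072 and GNP1 at −0.05, and these 4 again did not pass (limma). GAP1, the general amino acid permease, stood at 8.79, 8.90 and 8.85 on the deletion arrays, against 9.99, 9.31 and 9.36 on the wild type arrays, with no overlap (difference −0.71 ± 0.17, SE; limma adjusted p = 0.0780). Without wild type replicate 3, GAP1 fell by 0.49 (limma adjusted p = 5.88e-05) and BAP3 rose by 0.10 (limma adjusted p = 0.0162). Of all tested probe sets, 10.1% were called lower and 11.9% higher without that array.

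The breakdown of branched-chain amino acids to alcohols runs through transamination, decarboxylation and reduction. ARO10, a decarboxylase of the keto acids made from amino acids, stood at 10.30, 10.45 and 10.25 on the deletion arrays, against 10.18, 7.36 and 7.44 on the wild type arrays. Wild type replicate 3 thus lay near the deletion arrays and 2.78 above the other wild type arrays. With all arrays the difference was 2.005 ± 0.72 (SE; limma adjusted p = 0.217), and without that array ARO10 rose by 2.93 ± 0.06 (SE; limma adjusted p = 2.68e-09).

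PDC5, a pyruvate decarboxylase, stood at 9.47, 9.35 and 9.59 on the deletion arrays, against 8.26, 8.94 and 8.89 on the wild type arrays, where replicate 3 was this time the lowest. Its difference of 0.77 ± 0.18 (SE) did not pass (limma adjusted p = 0.0694), and without replicate 3 PDC5 rose by 0.55 ± 0.06 (SE; limma adjusted p = 0.000217). PDC6, another pyruvate decarboxylase, and ADH5, an alcohol dehydrogenase, also rose without that array, by 0.48 and 0.33 (limma adjusted p = 0.0205 and 0.000135). With all arrays PDC6 differed by 0.42 ± 0.12 (SE; limma adjusted p = 0.133) and ADH5, whose groups overlapped, by only 0.09 ± 0.19 (SE; limma adjusted p = 0.872), and ADH5 was at −0.019 without wild type replicate 4 and at −0.047 with replicate 6 left out. With BAT2, 5 of the 12 breakdown genes rose in the fit without wild type replicate 3 and 0 fell. In that fit 11.9% of all tested probe sets were called higher and 10.1% lower. The other 7 (THI3, PDC1, ADH1, ADH2, ADH3, ADH4 and SFA1) passed in neither fit, and ADH1 differed by 0.02 ± 0.02 (SE).

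**Figure D4:**
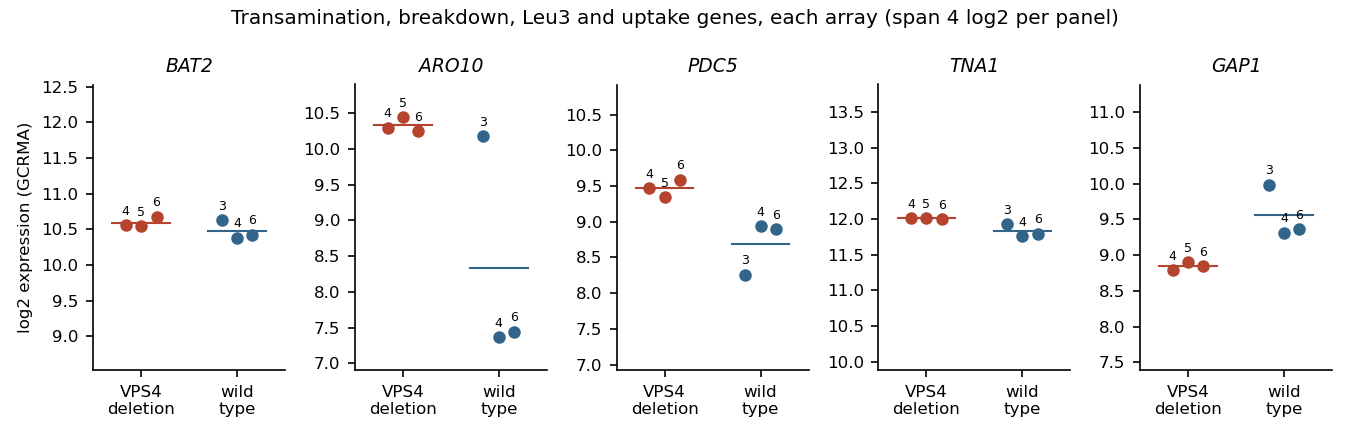
Log2 expression (GCRMA, vertical axes, each spanning 4 log2) of BAT2, ARO10, PDC5, TNA1 and GAP1 on each array, VPS4 deletion on the left and wild type on the right of each panel; points carry the title number and lines are group means. Wild type replicate 3 is the highest wild type array for BAT2, ARO10, TNA1 and GAP1 and the lowest for PDC5, and for ARO10 it lies at 10.18, beside the deletion arrays.

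GCN4, which encodes the activator of general amino acid control and is itself regulated mainly in translation, stood at 12.88, 12.86 and 12.89 on the deletion arrays, against 12.85, 12.83 and 12.88 on the wild type arrays. The groups overlapped and the difference was 0.02 ± 0.02 (SE; limma adjusted p = 0.679). Of the other genes of this control, GCN1, GCN2 and GCN20 differed by −0.10, −0.17 and −0.13 and GCN3 by 0.00017, and 0 of the 5 passed (limma). GCN20, a partner of the kinase activator Gcn1, fell by 0.11 without wild type replicate 3 (limma adjusted p = 0.0257).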

How the data were processed

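Per the submitters' processing notes the deposited log2 values come from GCRMA, which corrects background by probe sequence, quantile-normalizes the arrays and summarises each probe set; no version is named. Groups and replicate numbers came from the sample titles. Names came from the platform's probe annotation, with 12 symbols updated by gene ID from the R64 gene table, which was used for names only; no source used here names the annotation's build, so no coordinates are printed. The table's 10928 probe sets include 7244 with 1 symbol, 1 with several and 3683 with none, controls included. The 5498 of S. cerevisiae were tested. Another 1746 belonged to another yeast, and percentile 95 of these on each array served as its background; a fold against a group not above it is a bound set at that background. The probe sets of the 10 genes are all of the kind designed to match a single gene.

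Genotypes were compared with limma 3.58.1 in R 4.3.3 (lmFit, eBayes with a mean-variance trend, two-sided), adjusted by Benjamini-Hochberg over all 5498 probe sets at a threshold of 0.05. The fit was also run on simulated data with independent noise and the same spread on every array. That setting does not cover an outlying array such as wild type replicate 3. Only 3 arrays per group limit the precision. The members, the 7 lists and the tests were chosen with earlier results of these data known. Named genes are VPS4, the 10 members, the genes of the lists and the 5 genes most like LEU1. Alternatives covered the variance prior, array weights, a block for the title number, dim probe sets, scaling, the set of probe sets tested, leaving out each array, and 2 other thresholds.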

Additional observations from a re-analysis of the deposited data

How the results depend on the processing

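The count of the 10 genes called lower, 4, was 7 with array weights and 2 at a threshold of 0.01, ranged from 1 to 7 when 1 array was left out, and lay between 3 and 6 in the other alternatives; 0 were called higher in any alternative run (limma). LEU2 passed in all 14 refits and BAT1 in 12, LEU1 in 11 and ILV3 in 8. Over all tested probe sets, 80 lower and 155 higher calls became 436 and 600 with array weights, 380 and 478 with the replicate block, 18 and 49 at a threshold of 0.01 and 150 and 272 at 0.1, and ranged from 5 to 556 and from 17 to 656 when 1 array was left out. Of the 37 other genes, 0 were called either way; with array weights 7 were lower and 6 higher, with the replicate block 6 and 6, at a threshold of 0.1 1 and 2, and with 1 array left out 0 to 8 either way.

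Only title numbers 4 and 6 occur in both genotypes, and the numbers were not taken as pairs in the main fit. Same-numbered arrays deviated from their group means with correlations of 0.0210 for number 4 and −0.0586 for number 6. These correlations cannot exclude pairing, because wild type replicate 3 pulled the mean of its group. With the title number as a replicate block 6 of the 10 genes were called lower, and LEU9 changed sign there, to 0.0011. Title numbers found in a single genotype drop out of the difference in that fit, so it rests on numbers 4 and 6 alone. It thus makes no use of wild type replicate 3, and its calls are not separate from those made without that array.

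Among genes not called with all arrays, some differences changed sign; of these, BAP3 and ADH5 were called higher without wild type replicate 3, ADH5 also with array weights and with the replicate block, and the others in no refit. Under median centring BAP2 was −0.0014, THI3 −0.017, PDC1 −0.0079, SFA1 −0.0095 and GCN3 −0.019, and under quantile normalization THI3 was −0.0067 and GCN3 −0.00093. With array weights ILV1 was 0.0065, ADH3 0.029, SFA1 −0.012 and GCN3 −0.014, and with the replicate block ADH3 was 0.041, ADH4 0.0046, SFA1 −0.041 and GCN3 −0.015. With 1 array left out, differences ran from −0.045 to 0.0080 for ILV1, −0.0091 to 0.036 for BAP2, −0.022 to 0.099 for BAP3, −0.018 to 0.024 for THI3, −0.0073 to 0.030 for PDC1, −0.042 to 0.034 for ADH3, −0.045 to 0.0060 for ADH4, −0.047 to 0.33 for ADH5, −0.016 to 0.027 for SFA1, −0.075 to 0.0029 for ECM31, −0.072 to 0.013 for LYS4 and −0.014 to 0.013 for GCN3. The cause of these changes was not tested.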

Other observations

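Of 6 genes for iron-sulfur proteins other than Leu1 and Ilv3, 0 passed with all arrays (limma), and 2 had an unadjusted p under 0.05, as 17.4% of all tested probe sets did. Their differences all lay below zero, as did those of 2812 of 5498 tested probe sets, with a median of −0.12. RLI1, a protein of ribosome recycling, stood at 10.77, 10.67 and 10.55 on the deletion arrays, against 10.83, 10.88 and 10.93 on the wild type arrays, a difference of −0.22 ± 0.06 (SE; limma adjusted p = 0.107). The groups did not overlap. MET5, a subunit of sulfite reductase, differed by −0.13, GLT1, the glutamate synthase, by −0.20, SDH2, a subunit of succinate dehydrogenase, by −0.11, the aconitase gene ACO1 by −0.09 and the homoaconitase gene LYS4 by −0.04. The groups overlapped for SDH2, ACO1 and LYS4. Without wild type replicate 3, RLI1, SDH2 and GLT1 fell, by 0.24, 0.19 and 0.08 (limma adjusted p = 0.00971, 0.000919 and 0.0267). In that fit 10.1% of all tested probe sets were called lower.

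Pantothenate synthesis draws on the same keto acid as valine and leucine. PAN5, the ketopantoate reductase, stood at 11.09, 11.002 and 11.01 on the deletion arrays, against 11.19, 11.12 and 11.17 on the wild type arrays, with no overlap and a difference of −0.13 ± 0.04 (SE; limma adjusted p = 0.118). PAN5 fell by 0.11 without wild type replicate 3 (limma adjusted p = 0.0363), when 10.1% of all tested probe sets were called lower. ECM31 and PAN6, the other enzymes of that route, differed by −0.04 and 0.03, and passed in neither fit.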
